A study of Mus musculus with 10 samples.

Results

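The 9 mouse guanylate-binding protein (GBP) genes Gbp2, Gbp2b, Gbp3, Gbp4, Gbp5, Gbp6, Gbp7, Gbp8 and Gbp9 were taken by name from the deposited table of read counts per gene. They are 9 of 39488 rows, or of the 29700 that remained once circular RNAs were set aside. The samples were 10 bulk RNA-seq libraries, 1 per culture, of peritoneal macrophages from C57BL/6 mice aged 8 weeks, collected on the third day after thioglycollate, an irritant that draws monocytes into the peritoneal cavity. Control cultures (n = 5) carry the label untreated. The other cultures (n = 5) were given LPS, a bacterial cell-wall product, at 100 ng/ml and then oxidized low-density lipoprotein (ox-LDL) at 100 µg/ml for 16 h. By these labels the effects of LPS and of ox-LDL cannot be told apart; the study's wording also allows that control cells were primed with LPS, and the labels were followed here.

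GBPs are large GTPases that hydrolyse GTP, assemble into polymers and coat bacteria or the vacuoles that hold microbes. Their genes are classical targets of interferon gamma and respond to LPS through the interferons that macrophages release. In mouse macrophages the chromosome 3 cluster is known for opening pathogen vacuoles and for helping caspase-11 detect cytosolic LPS, which leads to cleavage of gasdermin D and pyroptosis.

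In the mouse build NCBIM37 (mm9), the genome used for these files, 5 of the 9 genes lie side by side on the plus strand of chromosome 3. They run in the order Gbp5 (chr3:142159864-142185308), Gbp7 (chr3:142193302-142213047), Gbp3 (chr3:142223016-142236173), Gbp2b (chr3:142257811-142282143) and Gbp2 (chr3:142283566-142300972). The other 4 lie on the minus strand of chromosome 5, as Gbp8 (chr5:105443172-105482580), Gbp9 (chr5:105507413-105539311), Gbp4 (chr5:105544786-105568605) and Gbp6 (chr5:105699723-105722718). Gbp10 and Gbp11, which were not on the list, lie in the same chromosome 5 stretch. No annotated gene overlapped any of the 9.

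The promoters of Gbp5, Gbp7, Gbp2b and Gbp2 are shown because they include the highest and the lowest fold change of the chromosome 3 cluster and because interferon-responsive promoters are known for short motifs. Each is the RefSeq window from 250 bases before to 50 bases after the annotated start, on the plus strand of build GRCm38.p6, at chr3:142496684-142496983, chr3:142530086-142530385, chr3:142594597-142594896 and chr3:142620413-142620712 in the order printed. Capitals mark matches, on either strand, to the gamma-activated site TTCNNNGAA or to the IRF core GAAANNGAA, which appears in these windows as its reverse complement.
Gbp5: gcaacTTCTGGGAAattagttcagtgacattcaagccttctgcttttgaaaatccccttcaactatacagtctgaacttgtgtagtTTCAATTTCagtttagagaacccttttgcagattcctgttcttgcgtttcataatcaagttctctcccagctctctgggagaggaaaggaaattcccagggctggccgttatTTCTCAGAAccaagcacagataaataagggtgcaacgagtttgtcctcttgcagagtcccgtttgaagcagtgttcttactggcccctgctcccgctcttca
Gbp7: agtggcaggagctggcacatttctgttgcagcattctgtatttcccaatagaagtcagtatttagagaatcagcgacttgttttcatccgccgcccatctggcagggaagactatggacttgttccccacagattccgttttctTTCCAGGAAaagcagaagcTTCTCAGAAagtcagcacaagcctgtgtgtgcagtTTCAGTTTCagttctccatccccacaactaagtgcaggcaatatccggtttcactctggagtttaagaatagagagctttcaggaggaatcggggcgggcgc
Gbp2b: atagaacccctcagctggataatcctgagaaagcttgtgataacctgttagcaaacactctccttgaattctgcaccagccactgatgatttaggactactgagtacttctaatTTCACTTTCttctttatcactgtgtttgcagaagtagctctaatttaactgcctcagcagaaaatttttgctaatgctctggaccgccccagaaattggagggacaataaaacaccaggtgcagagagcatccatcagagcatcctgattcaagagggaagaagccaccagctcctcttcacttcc
Gbp2: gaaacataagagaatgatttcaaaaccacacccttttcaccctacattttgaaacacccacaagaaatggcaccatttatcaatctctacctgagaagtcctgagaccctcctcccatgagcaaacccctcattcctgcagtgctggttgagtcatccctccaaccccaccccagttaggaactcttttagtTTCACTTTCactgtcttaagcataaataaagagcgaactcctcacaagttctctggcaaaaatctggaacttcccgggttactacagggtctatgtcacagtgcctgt

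The RefSeq table held 6 windows for 5 of the 9 genes, Gbp3 having 2 starts; Gbp4, Gbp6, Gbp8 and Gbp9 had no entry. All 5 genes had at least 1 window with an IRF core (5 of 6 windows), a motif found in 8.56% of the 32851 promoters in the table. The gamma-activated site was in 2 of the 6 windows, against 8.30% of all promoters. Both of those windows, Gbp5 and Gbp7, held 2 such sites and 1 IRF core each; at least 1 match to each of the motifs was found in 1.07% of all promoters. In Gbp5 the sites TTCTGGGAA and TTCTCAGAA began 245 and 52 bases before the start, and in Gbp7 TTCCAGGAA and TTCTCAGAA began 106 and 87 bases before it. The IRF core TTCACTTTC began 58 bases before the start in Gbp2 and 136 bases before it in Gbp2b. These are matches of letters, not measured binding sites.

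Depth was nearly even, at 20094647 to 20687289 counts per control library and 19257131 to 20358017 per ox-LDL library. Levels are given as CPM, counts scaled to a common total after edgeR's TMM scaling of library size, and compared between genes only as FPKM, which also divides by transcript length. TMM factors ran from 0.593 in ox-LDL 2 to 1.19, so CPM and FPKM can rank the cultures differently where ox-LDL 2 is concerned. In ox-LDL 2, control 1 and control 4, the deviation of a gene from its group mean fell with gene length (Spearman rho across 12654 genes between -0.65 and -0.46), unlike the other 7 libraries (0.06 to 0.52). Of 10 macrophage markers, 2 were higher (Adgre1, log2 fold change 2.07, and Cd14, 2.24) and 1 was lower (Mrc1, -2.24), with a median of 0.49. Over all genes tested, 9.4% were higher and 5.35% lower. The summed level of the 10 markers, 23157 to 42463 CPM in control and 13573 to 28164 CPM in ox-LDL libraries, was mostly Lyz2, which was not called. In bulk RNA, fewer cells of a type and less RNA per cell cannot be told apart.

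All 9 genes were higher in the ox-LDL-treated macrophages. Each had an adjusted p below 0.01 and a log2 fold change above 2 by edgeR's quasi-likelihood test with Benjamini-Hochberg adjustment over 12654 genes, where 9.4% of all genes were called higher and 4.78% passed both limits. For every one of the 9, the lowest ox-LDL library lay above the highest control library, which held for 11.6% of all genes tested. The exact two-sided permutation p was 0.00794 for each, the smallest that 5 against 5 libraries allow. Log2 fold changes ran from 3.32 for Gbp9 to 7.95 for Gbp5, against a median of 0.10 over all genes. Among the 1189 genes called higher, Gbp5 ranked 18, Gbp6 33, Gbp4 34 and Gbp2 52 by log2 fold change, and Gbp9 ranked 268. Together the 9 genes took 0.00535% ± 0.00171 (SD, n = 5) of the counts of control libraries and 0.353% ± 0.146 (SD, n = 5) of those of ox-LDL libraries. No library of either group entered the range of the other, the highest control library being at 0.00823% and the lowest ox-LDL library at 0.217%.

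**Figure D1:**
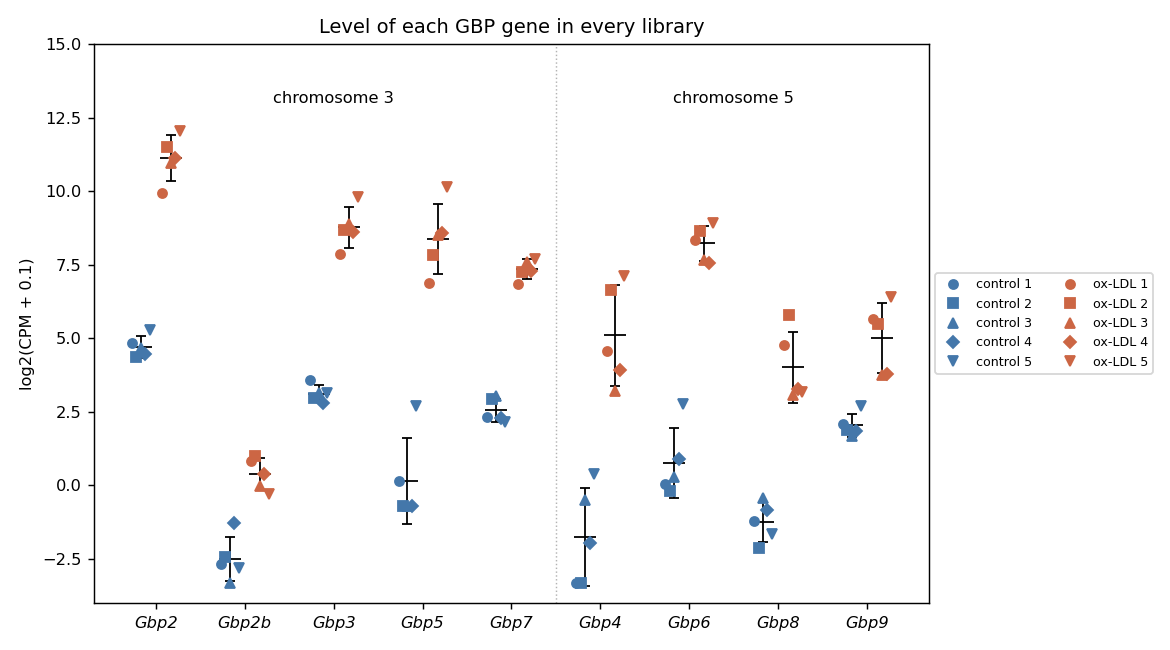
Level of each of the 9 genes in every library, as log2(CPM + 0.1); each symbol is 1 library, blue for control and orange for ox-LDL, with black bars for the mean ± SD of the 5 log values. The groups do not overlap for any gene, and control 5 is the highest control library for Gbp5, Gbp4, Gbp6, Gbp2 and Gbp9.

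Gbp2, a prenylated member that gathers on Toxoplasma vacuoles, had the highest level per length of the 9 genes in both groups, at 12.7 ± 4.31 FPKM in control and 964 ± 395 FPKM in treated cells (SD, n = 5). Control 1 to 5 had 28.2, 20.3, 25.1, 21.7 and 38.9 CPM, and ox-LDL 1 to 5 had 972, 2874, 2002, 2221 and 4245 CPM. Even the lowest treated culture, ox-LDL 1, was 25.0-fold above the highest control. The mean of the 5 cultures was 26.8 ± 7.43 CPM (SD) without and 2463 ± 1208 CPM with treatment. On the log2 scale Gbp2 rose by 6.52 (SE 0.46, edgeR adjusted p = 5.62e-06).

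Gbp5, known for promoting NLRP3 inflammasome assembly, had the largest fold change of the 9. Its control values were 1.00, 0.51, 0.51, 0.52 and 6.30 CPM, and its ox-LDL values 116, 225, 362, 381 and 1119.6 CPM. In both groups replicate 5 was far above the rest, and the ox-LDL cultures spanned 9.62-fold in CPM and 7.06-fold in FPKM. The log2 fold change was 7.95 (SE 1.03, edgeR adjusted p = 0.000223), 9.44 without control 5 and 7.24 without ox-LDL 5.

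Gbp3, another gene of the chromosome 3 cluster, was at 11.9, 7.66, 8.60, 6.80 and 8.69 CPM in control 1 to 5 and at 231, 414, 474, 388 and 881 CPM in ox-LDL 1 to 5. Control libraries were close together here, control 5 included. Its log2 fold change was 5.77 (SE 0.39, edgeR adjusted p = 4.87e-06).

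Gbp7, which has been linked to assembly of the phagocyte NADPH oxidase, had control values of 4.87, 7.45, 8.04, 4.79 and 4.39 CPM and ox-LDL values of 114, 153, 193, 156 and 209 CPM. The treated cultures spanned 1.83-fold in CPM, the narrowest range of the 9 genes on that scale, and 2.35-fold in FPKM, where Gbp6 was narrower at 1.90-fold. The log2 fold change of 4.80 (SE 0.28, edgeR adjusted p = 2.39e-06) had the smallest SE of the 9.

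Gbp2b, formerly called Gbp1, is prenylated like Gbp2 and lies next to it, but was the scarcest member. It had 1, 2, 0, 6 and 1 counts in control 1 to 5 and 38, 22, 18, 25 and 12 counts in ox-LDL 1 to 5, or 0 to 0.309 CPM against 0.717 to 1.88 CPM. The groups did not overlap, though a handful of reads separates them. The log2 fold change was 3.64 (SE 0.64, edgeR adjusted p = 0.00144), and 4.60 without control 4, the library with 6 counts. Per length, the mean level of Gbp2b in treated cells was 0.440 ± 0.190 FPKM, against 964 ± 395 FPKM for Gbp2 (SD, n = 5).

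The chromosome 5 genes need a statement on shared reads first. Of all 100-base stretches in the annotated transcripts of Gbp6, 62.9% also occur in Gbp10, and 64.3% of those of Gbp10 occur in Gbp6. No other pair involving one of the 9 genes shared as much as 7% at 100 bases, and Gbp2, Gbp2b and Gbp5 shared none with any family member. Sharing was wider at 50 bases. Of those stretches, 18.3% in Gbp8, 12.2% in Gbp4, 9.07% in Gbp9 and 34.5% in Gbp11 also occurred in another gene. Gbp2 and Gbp2b had 51 stretches of 50 bases in common. Shorter reads from these genes could thus also be shared. In the deposited counts, fractional values appeared in 4 family genes. Gbp4 and Gbp9 were fractional in the same 7 libraries, where their sum was whole to within 0.011 in 7 of 7, and Gbp6 and Gbp10 in 6 libraries, where theirs was whole in 6 of 6. The fractions were thus complementary within each pair. How reads were divided is not given in the sources used here, and single values for Gbp4, Gbp9, Gbp6 and Gbp10 are uncertain to that extent. Gbp4 and Gbp9 share 45 stretches of 100 bases, 0.974% of those of Gbp4 and 1.27% of those of Gbp9.

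**Figure D2:**
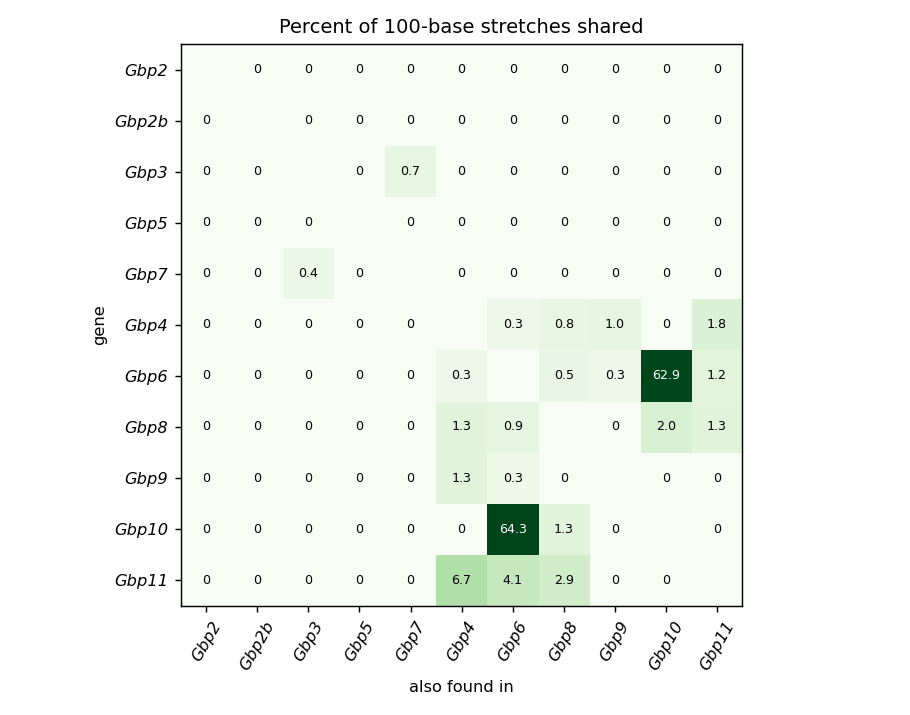
Percent of the distinct 100-base stretches in the annotated transcripts of the gene on the vertical axis that also occur in the gene on the horizontal axis, for the 9 genes and Gbp10 and Gbp11. At this length, sharing is concentrated in Gbp6 with Gbp10, at 62.9% and 64.3%, and is 0 between the clusters on chromosomes 3 and 5.

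Gbp6 had the highest mean level per length of the chromosome 5 genes in treated cells, at 86.0 ± 27.7 FPKM (SD, n = 5). Its control values were 0.940, 0.770, 1.11, 1.75 and 6.69 CPM, and its ox-LDL values 325, 400.0, 203, 188 and 484 CPM. Control 5 was highest among controls and ox-LDL 5 highest among treated cultures. Its log2 fold change was 7.14 (SE 0.71, edgeR adjusted p = 3.82e-05), and 8.12 without control 5. Summing Gbp6 with Gbp10 gave 7.14 as well (SE 0.71). Gbp10 had at most 71 counts in any library, so the sum could hardly differ. It does not show which of these genes the shared reads came from.

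Gbp4 was not detected in control 1 and control 2, where 0 counts allow up to 3, and had 14, 3 and 28 counts in control 3 to 5. In ox-LDL 1 to 5 it had 23.7, 98.6, 9.17, 15.1 and 139.9 CPM, so the treated cultures spanned 15.3-fold in CPM and 12.3-fold in FPKM, the widest range of the 9 genes on both scales. The log2 fold change was 7.11 (SE 1.11, edgeR adjusted p = 0.000709), 8.13 without control 5 and 6.51 without ox-LDL 5.

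Gbp9 had the smallest fold change of all 9 genes. Per length, its mean control level of 1.05 ± 0.372 FPKM was the highest of the chromosome 5 genes, within the SD of Gbp6 (0.840 ± 1.03 FPKM, n = 5). It was at 4.09, 3.55, 3.08, 3.50 and 6.43 CPM in control 1 to 5 and at 50.2, 45.0, 13.4, 13.5 and 84.6 CPM in ox-LDL 1 to 5. The lowest treated culture, ox-LDL 3, was 2.09-fold above the highest control, and ox-LDL 4 lay beside it. The log2 fold change was 3.32 (SE 0.51, edgeR adjusted p = 0.000639), and Gbp4 and Gbp9 summed gave 4.44 (SE 0.64, edgeR adjusted p = 0.000406).

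Gbp8 was low in control libraries, at 0.332, 0.128, 0.642, 0.463 and 0.217 CPM, and reached 27.2, 54.6, 8.24, 9.66 and 8.90 CPM in ox-LDL 1 to 5. Here ox-LDL 1 and ox-LDL 2 were the high cultures and ox-LDL 5 was not. The log2 fold change was 5.90 (SE 0.70, edgeR adjusted p = 0.000117), 5.18 without ox-LDL 2 and 4.59 without ox-LDL 1 and ox-LDL 2.

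The remaining family genes, Gbp10 and Gbp11, were too low to be tested. Gbp10 had 0, 0, 0, 0 and 1 counts in control and 16, 71, 5, 1 and 46 counts in ox-LDL libraries, and Gbp11 had 0 counts in every control and 69, 45, 16, 19 and 9 counts in ox-LDL 1 to 5. Set against 3 counts per control library, the ox-LDL mean of Gbp11 was at least 12.8-fold higher. No fold is given for Gbp10, whose counts are divided with Gbp6.

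**Figure D3:**
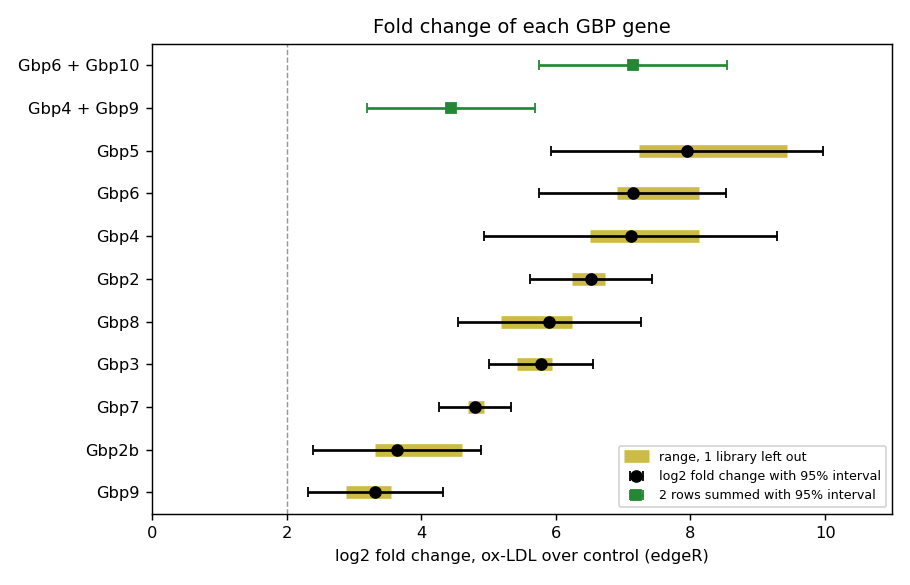
Log2 fold change of each gene, ox-LDL over control, from edgeR (black points, bars the 95% interval), with the range seen when 1 library at a time was left out (yellow) and the 2 summed pairs (green squares); the dashed line marks a log2 fold change of 2. Gbp5 is highest at 7.95 and Gbp9 lowest at 3.32.

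Fold changes differed between members for some pairs. The log2 ratio of counts was compared between groups for all 36 pairs by exact two-sided permutation, and 6 pairs had a Benjamini-Hochberg adjusted p of 0.0476, all at the smallest possible p of 0.00794. In 5 of the 6, Gbp9 rose by less than its partner. The log2 ratio to Gbp9 grew by 3.40 for Gbp2, 2.65 for Gbp3, 5.37 for Gbp5, 4.55 for Gbp6 and 4.80 for Gbp4. In the other, the ratio of Gbp2b to Gbp6 fell by 3.69. Each called pair thus held Gbp9, fractional in 7 libraries, or Gbp6, fractional in 6. Summed with Gbp4, Gbp9 gave a log2 fold change of 4.44, against 3.32 alone. How far the calls depend on the division of reads was not tested. These calls sit at the edge of what the design can show. With 1 library left out, 9 of 10 exact permutation tests of the 36 pairs gave 0 adjusted calls (smallest adjusted p 0.0519 to 0.0714, with 16 to 20 pairs at an unadjusted p below 0.05), and without control 5 there were 18 calls.

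The make-up of the GBP transcript pool can be read per length. Gbp2 made up 61.7% ± 1.36 of the summed FPKM of the 9 genes in control and 67.6% ± 5.20 in ox-LDL libraries (SD, n = 5 each), with overlapping ranges. Gbp3 followed with 19.0% ± 4.47 and 12.3% ± 1.83. The share of Gbp9 went from 4.02 to 6.36% across control libraries to 0.213 to 1.66% across ox-LDL libraries, and that of Gbp7 from 3.72 to 9.47% to at most 3.20%, both without overlap. Gbp5 went the other way on average, from 2.57% ± 2.89 to 8.62% ± 3.60, but control 5, at 7.71%, lay inside the ox-LDL range. In total the 9 genes summed to 20.6 ± 7.03 FPKM in control and 1426 ± 601 FPKM in ox-LDL libraries, of which the 5 chromosome 3 genes gave 18.5 ± 5.64 and 1312 ± 586 FPKM.

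**Figure D4:**
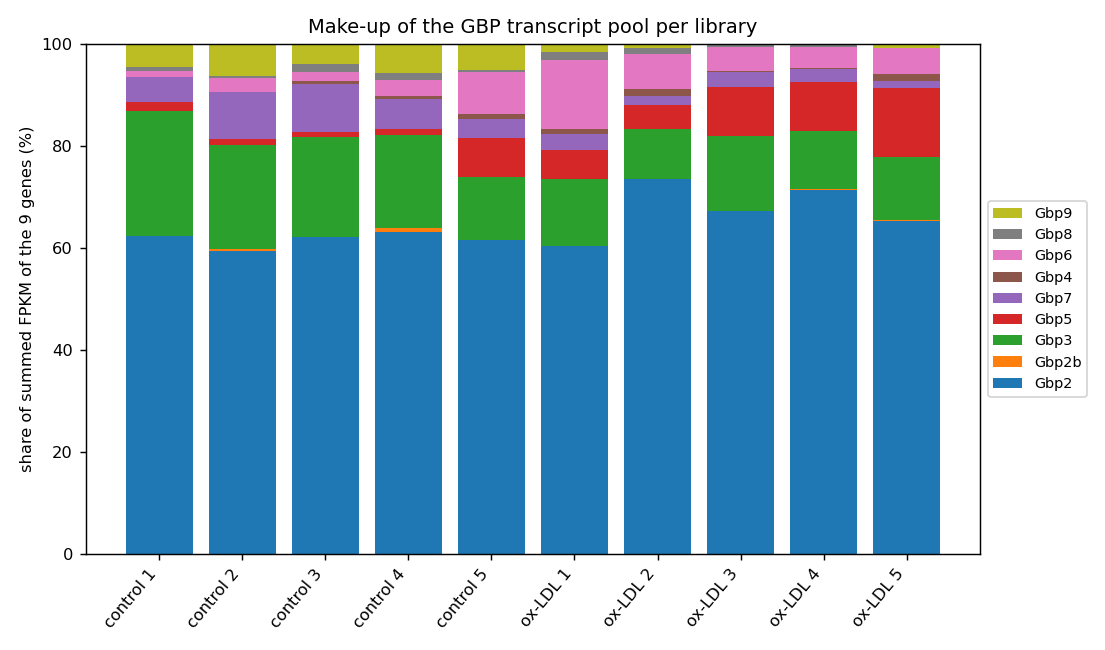
Share of each gene in the summed FPKM of the 9 genes, 1 bar per library; each bar adds to 100%. Gbp2 is the largest share in every library, and the shares of Gbp9 and Gbp7 are smaller in all ox-LDL bars than in any control bar.

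The treated cultures did not rank alike for all members. In both CPM and FPKM, Gbp2, Gbp3, Gbp5, Gbp4, Gbp6 and Gbp9 were highest in ox-LDL 5. Gbp4, Gbp6 and Gbp9 were lowest in ox-LDL 3 or ox-LDL 4 on both scales, and Gbp2 in ox-LDL 1, whereas Gbp3 and Gbp5 were lowest in ox-LDL 1 by CPM and in ox-LDL 2 by FPKM. Gbp7 was highest in ox-LDL 5 by CPM and in ox-LDL 3 by FPKM. Gbp8 and Gbp11 were highest in ox-LDL 1 and ox-LDL 2, in that order by FPKM and in the reverse order by CPM, and Gbp2b and Gbp11 were lowest in ox-LDL 5 on both scales. Within single libraries, which removes scaling, the count of Gbp8 was 23.3% and 24.3% of that of Gbp5 in ox-LDL 1 and ox-LDL 2, but 2.28%, 2.54% and 0.795% in ox-LDL 3, ox-LDL 4 and ox-LDL 5. The labels name no difference between these cultures, and its source was not tested.

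**Figure D5:**
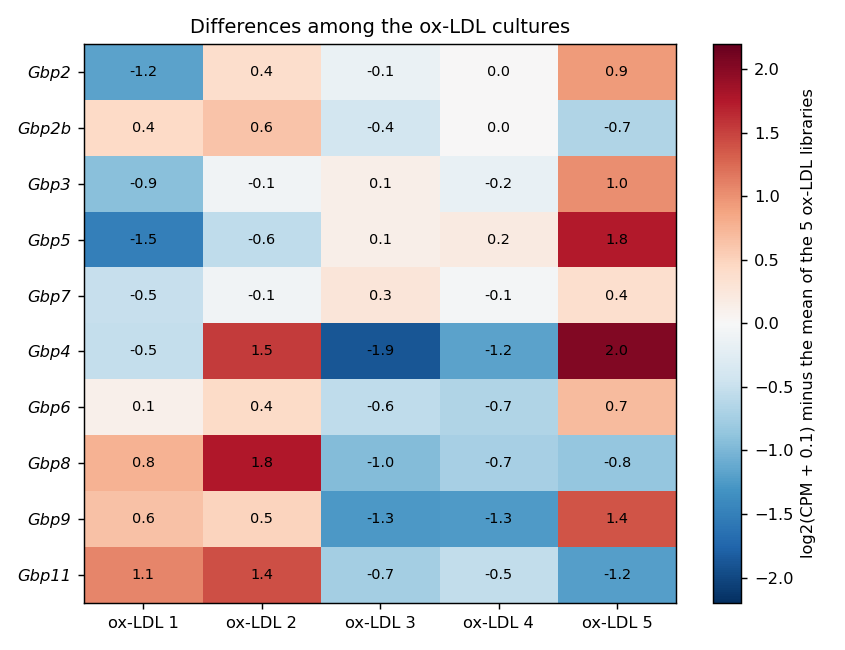
Deviation of each gene in each ox-LDL culture from its mean over the 5 ox-LDL cultures, in log2(CPM + 0.1); red is above the mean and blue below. Gbp2, Gbp3 and Gbp5 are highest in ox-LDL 5, while Gbp8 and Gbp11 are highest in ox-LDL 1 and ox-LDL 2, whose order turns in FPKM.

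Control 5 stood apart for part of the family. In CPM its Gbp5 was 12.2-fold and its Gbp6 6.52-fold the median of the other controls, and its 28 counts of Gbp4 compare with 0, 0, 14 and 3. Gbp9 (1.82-fold) and Gbp2 (1.66-fold) were also highest in control 5, by less, whereas Gbp3 was 1.07-fold, Gbp7 0.713-fold and Gbp8 0.546-fold. All 9 genes were still called without control 5.

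The 5 genes whose profile over the 10 libraries was most like the mean profile of the 9 genes were Irf1, Cst7, Ifi47, Cd38 and Gm12250, out of 7630 genes with a mean of at least 10 CPM. Likeness was the root mean square difference between a gene's centred log2(CPM + 1) and the mean of the centred values of the 9 genes, which was 0.33 for Irf1, 0.34 for Cst7, 0.36 for Ifi47 and 0.38 for both Cd38 and Gm12250. Irf1, which encodes a transcription factor of GBP promoters, went from 24.0 ± 5.03 to 625 ± 347 CPM. Cst7 (cystatin F) went from 0.230 ± 0.160 to 32.5 ± 6.76 CPM (SD, n = 5). Its log2 fold change by edgeR was 7.09, against 4.70 for Irf1, a difference that the 1 added to CPM lessens. The 9 genes themselves lay further from their mean profile, from 0.50 for Gbp7 to 1.92 for Gbp2b, so that profile describes no single member closely.

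Among genes upstream of the GBPs, 5 of 10 tested interferon ligands, interferon-inducing cytokines and receptors were higher and 1 was lower, against 9.4% higher and 5.35% lower over all genes. Ifng, the interferon that GBPs respond to most, had at most 5 counts in any control and from 1.35 to 24.2 CPM in ox-LDL libraries (log2 fold change 7.41, SE 1.20, edgeR adjusted p = 0.00086). T and NK cells are the usual source of interferon gamma. Their 9 listed markers summed to 0.685 to 2.11 CPM in control and 0 to 1.52 CPM in ox-LDL libraries. These markers were near 0 in both groups, and the source of the Ifng reads was not tested. The interleukin 12 subunits Il12a and Il12b rose by 8.44 and 8.19 on the log2 scale. Il27 rose by 4.29 and Ifnar2, a subunit of the type I interferon receptor, by 1.58. Ifngr1, a subunit of the interferon gamma receptor, fell by 1.66 on the log2 scale (SE 0.21, edgeR adjusted p = 0.000184), from 171 ± 31.7 to 54.4 ± 11.2 CPM. Ifnb1 was at 0 counts in every control library and at 0.116 ± 0.140 CPM in ox-LDL libraries, below the level of 3 counts, and could not be judged at this depth.

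Of 19 listed JAK, STAT, IRF, BATF and NF-kB genes, with Nlrc5 and Ciita, 11 were higher and 0 lower. Over all genes, 9.4% were higher and 5.35% lower. The median log2 fold change of the 19 was 1.85. Irf1 (4.70) and Irf7 (4.54) had the highest fold changes, Batf2 reached 4.06 and Irf8 3.24, and Jak2 (1.64) and Stat3 (1.85) the lowest among those called. Irf9, part of the type I interferon complex ISGF3, had a log2 fold change of 1.00 (SE 0.25) and missed the limit at an edgeR adjusted p of 0.0117. Negative regulators rose too, 5 of 10 being higher and 0 lower. Socs3 and Socs1, which block JAK kinases, had log2 fold changes of 5.58 and 5.12, Usp18 2.17 and Ptpn2 1.31, and Cish, at no more than 3 counts in any control, was higher by at least 5.25 on the log2 scale.

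Among partner proteins, all 8 tested immunity-related GTPase (IRG) genes were higher, against 9.4% of all genes, with a median log2 fold change of 4.75. IRGs act with GBPs on pathogen vacuoles. Iigp1, an effector IRG, had the highest value at 8.64 (SE 1.02, edgeR adjusted p = 0.000117). Tgtp1 (8.28) and Tgtp2 (8.14) are near-identical copies whose separate values are uncertain. The regulatory IRGs Irgm1 (3.97), Igtp (3.83) and Irgm2 (3.07) were also called. Of 7 other GTPases and interferon-inducible genes, 4 were higher, namely Rsad2 (5.41), Mx1 (3.27), Mx2 (3.05) and Gvin1 (2.76).

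Of 8 genes for prenylation, the lipid anchoring of some GBPs, and for the steps after it, 0 were higher and 1 was lower by edgeR. Over all genes 9.4% were higher and 5.35% lower, and counts this small cannot be told from those shares. The lower gene was Fdps, which supplies the prenyl donor and fell by 1.84 on the log2 scale (SE 0.32, edgeR adjusted p = 0.00145). Its product also feeds cholesterol synthesis. Fnta, the subunit shared by the farnesyl and geranylgeranyl transferases, had a log2 fold change of -0.67 and an edgeR adjusted p of 0.0169. Of 18 autophagy and ubiquitin factors that act at vacuoles, 5 (27.8%) were higher, against 9.4% of all genes, and 0 lower, with a median log2 fold change of 0.24. These were Rnf213 (2.71), the autophagy receptor Sqstm1 (2.64), Ube2l6 (2.24), Traf6 (1.14) and Lgals8 (0.85), while Atg3, Atg5, Atg7 and Atg16l1, which conjugate LC3-type proteins, had values between -0.23 and 0.27 and were not called.

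Of 15 listed inflammasome and cell death genes, not all of which act after GBPs, 6 were higher and 0 lower, against 9.4% and 5.35% of all genes. Zbp1 had a log2 fold change of 5.41, Il1a 4.34, Nlrp3 2.88, Casp4, which encodes caspase-11, 2.36, Naip2 1.43 and Gsdmd, the pore-forming substrate, 1.22. Casp4 went from 39.2 ± 11.3 to 201 ± 154 CPM and Gsdmd from 44.4 ± 4.41 to 104 ± 42.4 CPM (SD, n = 5). Casp1 (1.03, edgeR adjusted p = 0.017) and Il1b (7.46, SE 2.03, edgeR adjusted p = 0.018) did not pass the limit, nor did Aim2 (-0.43).

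Markers of other cells moved with the groups in part. Summed mesothelial and stromal markers (8 genes) ran from 15.6 to 51.4 CPM across control libraries and from 60.5 to 140.2 CPM across treated ones. Col1a1 and Dcn were higher among 5 tested, against 9.4% of all genes. The sum was mostly Dcn, whose mean went from 27.1 to 80.4 CPM, and Col1a1 went from 2.34 to 15.5 CPM. Of the mesothelial markers, Wt1 went from 1.26 to 2.10 CPM and was not called. Msln (0.101 to 0.120 CPM), Krt19 (0.461 to 0.539 CPM) and Upk3b (0.524 to 0.0750 CPM) were too low to be tested. Neutrophil markers (7 genes) ran from 6.32 to 15.2 and from 13.4 to 89.6 CPM, mostly S100a8. The highest count in any library was 41 for Retnlg, 16 for Camp, 8 for S100a9, 5 for Ngp, 2 for Mpo and 1 for Elane. Dendritic cell markers (6 genes) ran from 1.56 to 2.73 and from 4.48 to 14.0 CPM. By mean level the treated sum was mostly Ccr7, which went from 0.157 to 4.89 CPM. Clec9a went from 0.322 to 1.68 CPM and Zbtb46, which was not called, from 0.499 to 1.18 CPM. Cd209a went the other way, from 0.842 to 0.0171 CPM. Flt3 and Xcr1 had means of at most 0.182 CPM in either group. B cell markers (5 genes) ran from 1.11 to 2.80 and from 0.649 to 3.45 CPM. Eosinophil and mast cell markers (5 genes) ran from 2.85 to 7.80 and from 0.461 to 1.87 CPM. The part of such cells in the GBP levels was not tested.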

How the data were processed

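Per the submitters' processing notes, the tools were FastQC, HISAT2 (2.0.5), SAMtools (version 1.4) and, for assembly, StringTie, with the genome build mm9. The authors deposited estimated counts per gene, not normalized, and per-library values treated here as FPKM, because the gene length implied by each count and value was nearly the same in all libraries (median CV 0.812% over 4059 genes). The counting step, its use of strand and its handling of reads with several matches are not given in the sources used here. Of the count values, 13.6% were not whole.

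Counts were rounded, the 9788 circular RNA rows were left out, and 12654 genes passed edgeR's filterByExpr. Genes were tested with edgeR 4.0.16 (TMM, robust quasi-likelihood fit, R 4.3.3) with Benjamini-Hochberg adjustment; calls had an adjusted p below 0.01. Alternatives used DESeq2 1.42.0 and limma 3.58.1. The labels call the cultures biological replicates without saying which animals they came from, so p-values measure the spread between these cultures. Named were the 9 genes, the called genes of each list with the 2 highest and 2 lowest fold changes plus members whose role is explained, and the 5 genes most like the family. A fold change against at most 3 counts in every control library is a lower bound; such limits cover counting error only. Sharing of transcript stretches used GENCODE M1 for NCBIM37, in which Gbp2b is named Gbp1. Procedures were tested on simulated data. The genes and lists were chosen with earlier results of these data known. Protein sequences were not used here, and the value of 1 listed gene is not reported here.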

Additional observations from a re-analysis of the deposited data

Results flagged for a closer look

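Among 20 groups of 5 libraries (9 genes and the summed family, each in control and ox-LDL), 4 held a library whose gap to the next value exceeded Dixon's 95% limit. Chance alone gives about 1 if values are normally distributed, which was not tested for these CPM values, so the 2 numbers cannot be set against each other. Gbp5 in control 5 was at 6.30 CPM, with the next control at 0.996 CPM. Gbp6 in control 5 was at 6.69 CPM, with the next control at 1.75 CPM. Gbp5 in ox-LDL 5 was at 1119.6 CPM, with the next ox-LDL library at 381 CPM. Gbp2b in control 4 was at 0.309 CPM, which is 6 counts, with the next control at 0.0856 CPM, which is 2 counts. Both cultures numbered 5 were thus the highest of their group for Gbp5.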

How the results depend on the processing

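All 9 genes stayed higher, at an adjusted p below 0.01 and a log2 fold change above 2, in each of 27 alternative fits that tested them (234 values in all). The highest adjusted p was 0.00945, for Gbp4 with no filter on low counts, and the lowest log2 fold change was 2.07, for Gbp9 by limma on log2(FPKM + 1), a scale that understates changes of low genes. Gbp2b, Gbp4 and Gbp8 were not tested when 10 counts were required in every library, nor Gbp2b in the FPKM fits. The labels do not say whether replicate numbers pair the samples. Deviations of same-numbered libraries correlated at 0.02, -0.27, 0.44, -0.28 and 0.41, mixed values that cannot decide it. With a replicate block, all 9 genes were called (log2 fold change 8.35 for Gbp5, 3.03 for Gbp9), with 885 genes higher and 549 lower overall.

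The counts over all genes moved more than the family did; the cause was not tested. Against 1189 higher and 677 lower, library size alone gave 704 higher, limma gave 570 (log2(FPKM + 1)) and 553 (log2(FPKM + 0.1)) higher, DESeq2 gave 1244 lower, and removal of the gene length trend gave 1163 lower. Leaving out 1 library gave 826 to 1755 higher and 436 to 1502 lower, with 1502 lower without ox-LDL 2, 436 without control 4 and 437 without ox-LDL 3. Without ox-LDL 2 and control 5, 1843 were higher and 1483 lower, and without ox-LDL 1 and ox-LDL 2, a choice made after seeing the data, 1845 and 1603. Pairs with different fold changes numbered 6, 18 with 1 added to counts in place of 0.5, 23 on FPKM, 0 to 18 with 1 library left out and 0 without ox-LDL 2 and control 5 (17 at an unadjusted p below 0.05 by the exact permutation test). In that last setting the smallest p the exact permutation test allows is 0.0286. An adjusted call then needs many of the 36 pairs at that limit, so 0 calls there decides nothing. At this depth Gbp2b, Gbp10, Gbp11 and Ifnb1 rest on few reads.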
